A study of Mus musculus with 4 samples.

Results

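Rod and cone phototransduction genes were followed in RNA from sorted amacrine cells of the postnatal mouse retina. They were read as markers of photoreceptors, a cell type the sort was not aimed at. Some, such as Gnb1 and Gnb3, are also used by other cells, and the cells that gave the RNA were not tested. The set was a fixed list of 38 gene symbols, and all 38 were found among the 55471 genes of the count table. They comprised 12 genes mainly used by rods, 10 mainly used by cones and 16 used by both. Retinas were from C57BL6 mice at postnatal days 6 to 7 that carried Gbx2-CreERT2-IRES-EGFP together with Ai9. In such mice the Gbx2 allele makes a tamoxifen-inducible Cre and green fluorescent protein (GFP), and Ai9 gives lasting red fluorescence (tdTomato) to cells in which Cre has acted and to their descendants. The red cells were divided by GFP into a negative fraction (replicates 2 and 6) and a positive fraction (replicates 2 and 3), at 750 to 2500 cells per library. The mice came from 3 litters, and the series text plans a sample of each fraction from every animal. Both fractions have a replicate 2, but whether that number marks the same animal is not stated, nor is the tamoxifen schedule.

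Phototransduction is the cascade by which light closes cation channels in the photoreceptor outer segment. A light-activated opsin switches on the G protein transducin, transducin releases the phosphodiesterase PDE6 from its inhibitor, PDE6 breaks down cyclic GMP, and channels held open by cyclic GMP close. Arrestin, opsin kinase and RGS9 end the response, and guanylate cyclases restore cyclic GMP. Rods and cones use separate gene copies at most steps. In the first postnatal week of the mouse, the last rods are being born and outer segments have hardly begun to grow.

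The homeodomain factors CRX and OTX2 act upstream of many photoreceptor genes, and their core site is TAATCC. RefSeq promoter windows (GRCm38.p6, 300 bases, 250 of them before the transcript start) were matched for 27 of the 38 genes. TAATCC on either strand was in the windows of 11 of these 27 genes, 40.7%, against 8.14% of all 27025 genes with a window. Among them were 4 of 8 rod genes, 1 of 6 cone genes and 6 of 13 shared genes. The half-site TGCTGA of MAF-type factors, the class that NRL belongs to, was in 9 of the 27 genes, 33.3%, against 21.7% of all. On either strand, no end of one motif equals the start of the other, so their matches cannot overlap. A match describes letters only. The 120 bases just before the start site are printed for 7 of the 11 genes with a TAATCC match, which differ widely in level. Each runs 5′ to 3′ on the gene's strand, with TAATCC or its reverse complement in capitals.
Sag, chr1:87803560-87803679, plus strand: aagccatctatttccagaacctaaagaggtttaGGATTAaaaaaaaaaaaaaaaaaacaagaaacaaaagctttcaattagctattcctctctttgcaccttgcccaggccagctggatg
Gngt1, chr6:3993888-3994007, plus strand: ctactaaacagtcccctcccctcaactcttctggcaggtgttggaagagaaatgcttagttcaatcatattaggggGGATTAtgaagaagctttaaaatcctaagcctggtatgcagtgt
Cngb1, chr8:95306586-95306705, minus strand: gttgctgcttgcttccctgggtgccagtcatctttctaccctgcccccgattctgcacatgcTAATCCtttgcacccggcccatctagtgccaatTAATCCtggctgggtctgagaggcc
Gnat2, chr3:108092946-108093065, plus strand: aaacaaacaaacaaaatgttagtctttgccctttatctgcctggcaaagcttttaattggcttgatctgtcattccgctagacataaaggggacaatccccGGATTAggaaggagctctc
Gucy2e, chr11:69237023-69237142, minus strand: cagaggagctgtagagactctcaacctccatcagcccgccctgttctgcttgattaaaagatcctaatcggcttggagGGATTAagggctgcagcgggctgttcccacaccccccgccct
Guca1a, chr17:47400607-47400726, minus strand: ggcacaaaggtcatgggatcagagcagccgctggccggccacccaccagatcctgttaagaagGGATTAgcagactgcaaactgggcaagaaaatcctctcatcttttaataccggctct
Rbp3, chr14:33953883-33954002, plus strand: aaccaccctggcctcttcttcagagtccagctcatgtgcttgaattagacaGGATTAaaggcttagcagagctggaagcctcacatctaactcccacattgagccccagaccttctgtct
In Cngb1 the sites began 58 and 25 bases before the start. In the others the single site began 87 (Sag), 44 (Gngt1), 19 (Gnat2), 42 (Gucy2e), 57 (Guca1a) and 69 (Rbp3) bases before it. The level of these genes, all printed for their match, ran from over 200 CPM per kb for Sag and Rbp3 to almost no reads for Guca1a. Windows without a match also included genes at high and low levels. Among them were Rom1, Pdc and Prph2, at 440, 368 and 241 CPM per kb, and Cnga3 at 1.27 CPM per kb.

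The libraries held 41040667 to 44689917 counts. Levels are given as CPM, the counts scaled to a common library total. Gbx2, whose allele carries GFP, was at 28.7 and 55.5 CPM in the GFP-negative libraries (replicates 2 and 6) and at 602 and 496 CPM in the GFP-positive ones (replicates 2 and 3), as labelled. Of 12 amacrine markers none was at 0, and their sum was 6417, 4163, 2769 and 1954 CPM in GFP-negative replicate 6, GFP-negative replicate 2, GFP-positive replicate 2 and GFP-positive replicate 3. Among markers of other cells, 11 bipolar genes summed to 374 to 1425 CPM and 10 Müller glia genes to 719 to 1958 CPM. Of the latter, Dkk3 was lower in GFP-positive cells by edgeR (adjusted p = 0.0342). Dkk3 alone was at 1577 and 1008 CPM in GFP-negative replicates 6 and 2. It was at 244 and 131 CPM in GFP-positive replicates 2 and 3, so the spread of the Müller glia sum came mostly from this 1 gene. The sums were 102 to 355 CPM for 10 ganglion cell genes, 186 to 350 for 6 horizontal cell genes, 28.2 to 67.2 for 8 genes of progenitors and cycling cells, 63.1 to 122 for 6 vascular genes, 26.6 to 86.8 for 5 microglia genes and 3.59 to 19.9 for 7 pigment epithelium genes. The vascular sum was mostly Kdr, at 58.6 to 118 CPM. The other vascular genes reached at most 1.27 (Pecam1), 2.17 (Cdh5), 7.93 (Pdgfrb), 10.7 (Cldn5) and 13.2 CPM (Rgs5). Of the pigment epithelium genes, Rpe65, Lrat and Mlana were at 1.03 CPM or less in every library, while Tyrp1 reached 14.7, Pmel 9.80, Ttr 5.13 and Best1 3.46 CPM.

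Transcripts of the set were present in every library, in unequal amounts. The 38 genes together took 0.277% of all counts in GFP-negative replicate 6, 1.25% in GFP-negative replicate 2, 1.36% in GFP-positive replicate 2 and 2.44% in GFP-positive replicate 3. Without Gnb1, a G protein subunit of many cell types, the shares were 0.239%, 1.19%, 1.29% and 2.34% in the same order of libraries. The 11 rod genes other than Gnb1 summed to 1111, 4437, 4675 and 8720 CPM in that order. The 10 cone genes summed to 174, 775, 743 and 1471 CPM, and the 16 shared genes to 1449, 6465, 7148 and 11102 CPM. Between the ends of that order the rod sum differed 7.85-fold, the cone sum 8.44-fold and the shared sum 7.66-fold. In GFP-negative replicate 6 the genes Cngb3 (71.1 CPM) and Gnb3 (60.9 CPM) gave most of the cone sum. The median fold of single tested genes was 7.62 for rod genes (with Gnb1), 17.96 for cone genes and 8.10 for shared genes. The middle pair, GFP-negative replicate 2 and GFP-positive replicate 2, lay within 1.11-fold of each other in all 3 sums, although it spans the fractions; these libraries share the replicate number 2. Replicates of the same fraction were further apart: 3.99-fold (rod), 4.45-fold (cone) and 4.46-fold (shared) between the GFP-negative libraries, and 1.87-, 1.98- and 1.55-fold between the GFP-positive ones. In bulk samples, fewer cells of a type and less RNA per cell cannot be told apart. The bipolar marker sum had the same order of libraries as the rod sum (374, 793, 1013 and 1425 CPM), and the amacrine sum had the reverse order. Not every amacrine marker followed that reverse order. Pax6, the most abundant, was at 2245, 1469, 1972 and 1286 CPM. Slc6a9, the only 1 of the 12 with a positive log2 fold change, was at 31.4, 54.3, 85.8 and 74.7 CPM. The part of bipolar and amacrine cells in the differences was not tested.

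**Figure D1:**
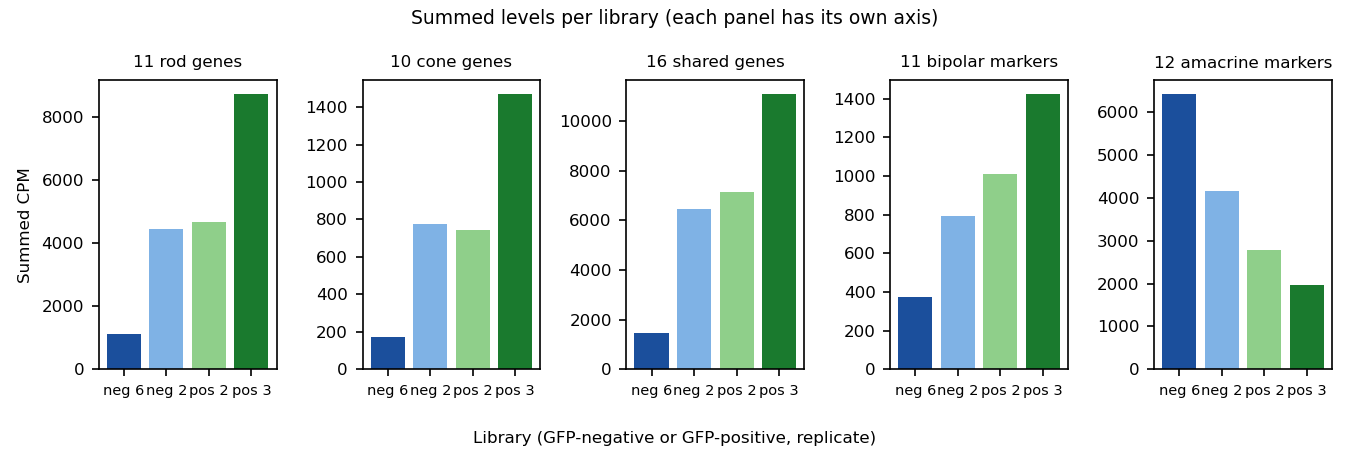
Summed CPM (vertical axis, starting at 0, a separate scale in each panel) in each of the 4 libraries for the rod, cone and shared genes and for bipolar and amacrine markers; each bar is 1 library, and the rod panel leaves out Gnb1. Rod genes run from 1111 to 8720 CPM from GFP-negative replicate 6 to GFP-positive replicate 3. The sum of the amacrine markers runs from 6417 down to 1954 CPM, an order not shared by every marker in it.

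RNA of most genes of the cascade was detected at this age. At a level of 1 CPM, 36 of 38 genes were on in all 4 libraries, the exceptions being Guca1a, which was under it in every library, and Cnga3, which was under it in GFP-negative replicate 6. The union of annotated exons can far exceed the longest transcript of a gene (6327 against 2739 bases for Cnga1). Dividing CPM by this exonic length in kilobases therefore gives only an approximate level for comparing genes. On that scale 11 genes averaged at least 100 CPM per kb over the libraries, 15 were between 10 and 100, 10 between 1 and 10, and 2 below 1. The order of the genes was similar from library to library, with Spearman's rho of 0.901 to 0.991 across genes for the 6 pairs of libraries. Genes are not independent replicates, and the libraries share the same tissue and length correction. Rod genes had a median of 58.5 CPM per kb, shared genes 53.1 and cone genes 10.3.

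**Figure D2:**
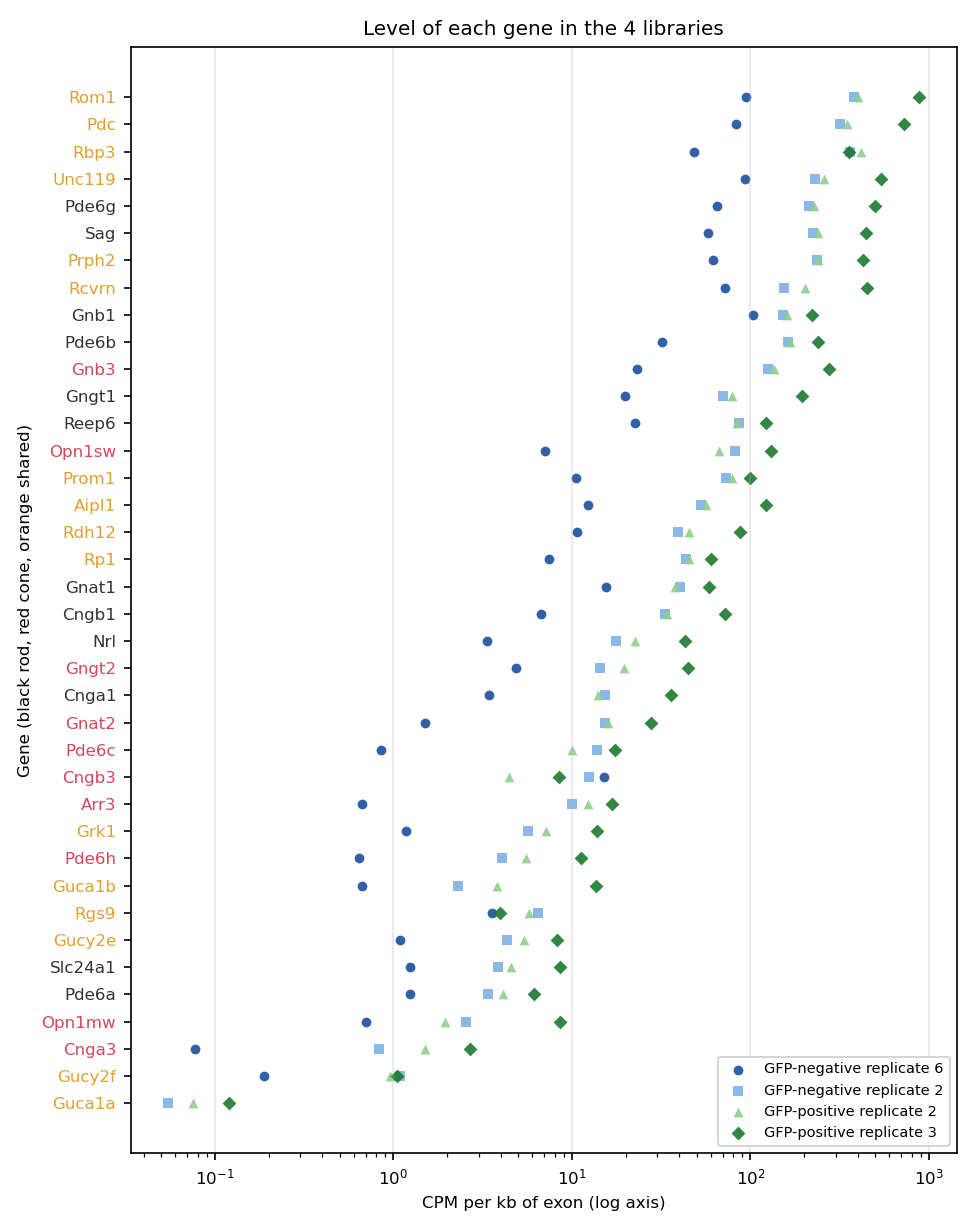
Level of each of the 38 genes in CPM per kb of exon (horizontal log axis), 1 symbol per library, genes ordered by their mean and coloured by class; a value of 0 (Guca1a in GFP-negative replicate 6) is not drawn. GFP-negative replicate 6 (dark blue circles) is the lowest of the 4 for the 36 tested genes other than Cngb3.

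The 6 genes with the highest mean per kilobase were Rom1, Pdc, Rbp3, Unc119, Pde6g and Sag. Rom1, a tetraspanin of disc rims (ENSMUSG00000071648, chromosome 19, 8927391 to 8929356, minus strand, GRCm38), led with 94.5, 380, 402 and 884 CPM per kb in GFP-negative replicate 6, GFP-negative replicate 2, GFP-positive replicate 2 and GFP-positive replicate 3. This order of libraries is kept for all lists of 4 values that follow. Its partner Prph2 stood at 61.8, 235, 239 and 429 CPM per kb. For both, GFP-negative replicate 6 was far below the rest and the fractions did not overlap. Pdc, which encodes phosducin, a binding partner of the transducin beta and gamma subunits, was second at 82.7, 317, 348 and 724 CPM per kb. Rbp3, the retinoid carrier of the space between photoreceptors and pigment epithelium (chromosome 14, 33954003 to 33964216), came next at 48.2, 361, 417 and 358 CPM per kb. It was among the few genes that were not highest in GFP-positive replicate 3, and its fractions overlapped. Unc119, a lipid-binding chaperone of transducin alpha, followed at 93.3, 230, 260 and 538 CPM per kb. Prom1, needed for disc formation, and Rp1, a protein of the ciliary axoneme, averaged 65.5 and 39.2 CPM per kb. The PDE6 chaperone Aipl1 averaged 60.7, Reep6, a membrane-trafficking protein of rods, 78.9, and the retinol dehydrogenase Rdh12 45.5 CPM per kb.

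The 2 cone opsin genes differed in level. Opn1sw, the short-wavelength cone opsin (ENSMUSG00000058831, chromosome 6, 29376671 to 29388468, minus strand), was at 18.1, 209, 170 and 335 CPM. Opn1mw, the middle-wavelength cone opsin on chromosome X, was at 1.09, 3.97, 3.04 and 13.5 CPM. Per kilobase Opn1sw was 10.2- to 34.1-fold above Opn1mw, and GFP-negative replicate 6, with 39 counts of Opn1mw, gave the lowest ratio. The annotated exons of Opn1sw overlap those of Calu on the other strand over 15.5% of their length, and the strand setting of the counting is not given. The rod transducin alpha gene Gnat1 was at 47.0, 122, 114 and 178 CPM, and its cone counterpart Gnat2 at 4.52, 46.1, 47.9 and 82.7 CPM. The rod gamma gene Gngt1 was at 69.6, 245, 276 and 679 CPM and the cone gene Gngt2 at 9.08, 27.0, 36.8 and 83.8 CPM. Of the beta subunits, Gnb1 was at 439, 652, 682 and 947 CPM and Gnb3, used by cones and also by ON bipolar cells, at 60.9, 331, 357 and 727 CPM. All 6 transducin genes were lowest in GFP-negative replicate 6 and highest in GFP-positive replicate 3.

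PDE6 genes differed widely in level. The rod catalytic beta gene Pde6b (chromosome 5, 108388391 to 108432397) was at 160, 821, 837 and 1207 CPM, whereas the rod alpha gene Pde6a was at 5.78, 15.97, 19.2 and 28.6 CPM. The protein pairs alpha with beta in rods, yet per kilobase Pde6b transcripts were 25.8- to 47.9-fold more abundant than those of Pde6a. The inhibitory gamma gene of rods, Pde6g, was at 150, 495, 524 and 1158 CPM. The cone catalytic gene Pde6c was at 2.54, 41.3, 29.7 and 51.5 CPM, per kilobase below Pde6b in all 4 libraries but above Pde6a in each except GFP-negative replicate 6. The cone inhibitory gene Pde6h was below Pde6g, at 4.999, 31.7, 43.4 and 88.3 CPM.

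Channel genes showed the clearest exception. The rod channel genes Cnga1 and Cngb1 were at 21.7, 96.8, 88.3 and 226 CPM and at 62.7, 309, 321 and 674 CPM. Their ratio per kilobase, Cngb1 over Cnga1, stayed between 1.95 and 2.46 in the 4 libraries. The cone alpha gene Cnga3 was low, at 0.31, 3.30, 5.97 and 10.6 CPM, the first of these resting on 11 counts. The cone beta gene Cngb3 (ENSMUSG00000056494, chromosome 4, 19280850 to 19510623, plus strand) ran the other way, at 71.1, 58.8, 20.8 and 39.8 CPM. It was the only tested gene of the set whose GFP-negative libraries both lay above both GFP-positive ones, and the only tested one that was not lowest in GFP-negative replicate 6. Cngb3 over Cnga3 per kilobase was 194.5 in GFP-negative replicate 6, 14.98 in GFP-negative replicate 2, and 2.93 and 3.17 in GFP-positive replicates 2 and 3. No other annotated exon overlaps those of Cngb3. The rod exchanger gene Slc24a1, which returns calcium out of the outer segment, was at 6.42, 19.96, 23.8 and 44.7 CPM.

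The arrestin genes of rods and cones differed in level. Sag, the arrestin of rods (ENSMUSG00000056055, chromosome 1, 87803680 to 87845158), had the highest mean CPM of the set, with 512, 1996, 2132 and 3972 CPM, and the cone arrestin Arr3 was at 1.56, 23.5, 29.0 and 39.3 CPM. Both had separate fractions, but GFP-negative replicate 2 lay beside GFP-positive replicate 2 and far from GFP-negative replicate 6. Rcvrn, the calcium sensor recoverin that restrains opsin kinase, was at 75.2, 160, 210 and 467 CPM, and the kinase gene Grk1 at 10.4, 49.7, 62.7 and 122 CPM. Rgs9, which speeds the shutdown of transducin, was at 22.9, 41.0, 36.6 and 25.4 CPM, so that the libraries with the lowest and the highest rod sum had similar levels. Its fold between GFP-positive replicate 3 and GFP-negative replicate 6 was 1.11, against 7.85 for the rod sum.

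Genes that restore cyclic GMP were low, and 1 of them was nearly absent. The cyclase gene Gucy2e was at 10.03, 39.9, 49.7 and 76.2 CPM, and Gucy2f, on chromosome X, at 1.54, 8.89, 7.81 and 8.50 CPM. Guca1b, which encodes a calcium-sensing activator of these cyclases (ENSMUSG00000023979, chromosome 17, 47385393 to 47392967, plus strand), was at 1.62, 5.64, 9.32 and 33.1 CPM. Guca1a, the neighbouring gene for the other activator (ENSMUSG00000023982, chromosome 17, 47394558 to 47400584, minus strand), had 0, 2, 3 and 5 counts. A count of 0 allows up to 3 counts, or 0.0838 CPM, in GFP-negative replicate 6, a limit that covers counting error only. Guca1a exons overlap no other gene in the annotation used. In these libraries the counts of the 2 activator genes differed although they are neighbours on the chromosome, and the cause was not tested. Nrl, the transcription factor that directs the rod fate, was at 19.1, 100, 129 and 244 CPM.

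The balance of rod to cone RNA was close in 3 of the libraries. In the sums, whether the fourth stood apart depended on the division by gene length. Summed per kilobase, rod genes (without Gnb1) were 3.10-, 3.34- and 3.17-fold above cone genes in GFP-negative replicate 2, GFP-positive replicate 2 and GFP-positive replicate 3, and 4.17-fold in GFP-negative replicate 6 (mean 3.45 ± 0.50, SD over the 4 libraries). Without division by length the ratios were 5.72, 6.29, 5.93 and, in GFP-negative replicate 6, 6.37, so that this library no longer stood apart. The cone sum of that library also leaned on Cngb3, which ran against the set. Cngb3 gave 71.1 of its 174 CPM, against 58.8 of 775 in GFP-negative replicate 2. In GFP-positive replicates 2 and 3 it gave 20.8 of 743 and 39.8 of 1471 CPM. The order of libraries in a ratio within a pair of genes does not depend on division by length. Of 8 rod and cone pairs, 6 had their highest ratio in GFP-negative replicate 6. Gnat1 over Gnat2 was 10.3 there and 2.13 to 2.62 elsewhere, and Sag over Arr3 was 86.5 there and 19.4 to 26.7 elsewhere. Pde6b over Pde6c was 37.2 against 11.7 to 16.7, Pde6g over Pde6h 101.8 against 40.9 to 53.0, and Cnga1 over Cnga3 44.2 against 9.24 to 18.4. Gnb1 over Gnb3, at 4.44 against 0.80 to 1.21, includes a gene of many cell types. Gngt1 over Gngt2 was 4.01 to 4.85 in all 4 libraries, and Cngb1 over Cngb3 was lowest in GFP-negative replicate 6 (0.44). From GFP-negative replicate 6 to replicate 2 the rod genes differed 1.48- to 5.25-fold, and 7 of 10 cone genes and 4 of 15 shared genes differed by more than any rod gene. The cone values of that library rest on 56 counts for Arr3, 91 for Pde6c and 162 for Gnat2. The higher ratios belong to 1 library, so they have no replicate, and no test was made.

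**Figure D3:**
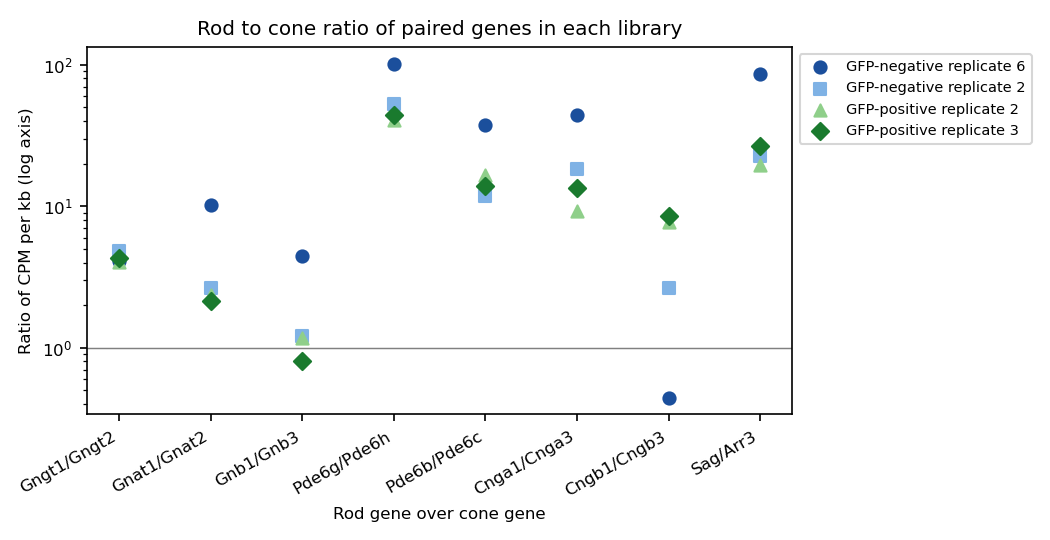
Ratio of the rod gene to the cone gene (CPM per kb, vertical log axis) for 8 pairs, 1 symbol per library. GFP-negative replicate 6 (dark blue circles) is highest in 6 of 8 pairs, level with the others for Gngt1 over Gngt2, and lowest for Cngb1 over Cngb3.

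Across single genes the 2 ends of the rod sum's order held with few exceptions, and the full order with more. Of 37 tested genes, 36 were lowest in GFP-negative replicate 6 and 33 highest in GFP-positive replicate 3. Both held for 33, against 19.0% of all tested genes. The full order of the rod sum was kept by 27 of 37, against 10.4% of all 17940 tested genes. The rod genes made that sum, but 6 of 10 cone genes and 12 of 15 tested shared genes, which did not, kept it too. The 10 that did not were Gnat1, Cnga1, Gucy2f, Reep6, Rbp3, Rgs9, Opn1sw, Opn1mw, Pde6c and Cngb3. In log2 CPM, GFP-negative replicate 2 lay nearer to GFP-positive replicate 2 than to GFP-negative replicate 6 for 36 of 37 genes, against 57.2% of all tested genes; the exception was Cngb3. The median gene of the set was 3.98-fold higher in GFP-negative replicate 2 than in replicate 6, 1.07-fold higher in GFP-positive than in GFP-negative replicate 2, and 1.90-fold higher in GFP-positive replicate 3 than in replicate 2. The same medians over all tested genes, with a pseudocount of 0.5 CPM, were 1.01, 0.997 and 0.991. The steepest genes from end to end were Cnga3 (34.4-fold), Arr3 (25.1-fold) and Guca1b (20.4-fold), and the flattest were Cngb3 (0.56-fold), Rgs9 (1.11-fold) and Gnb1 (2.16-fold).

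**Figure D4:**
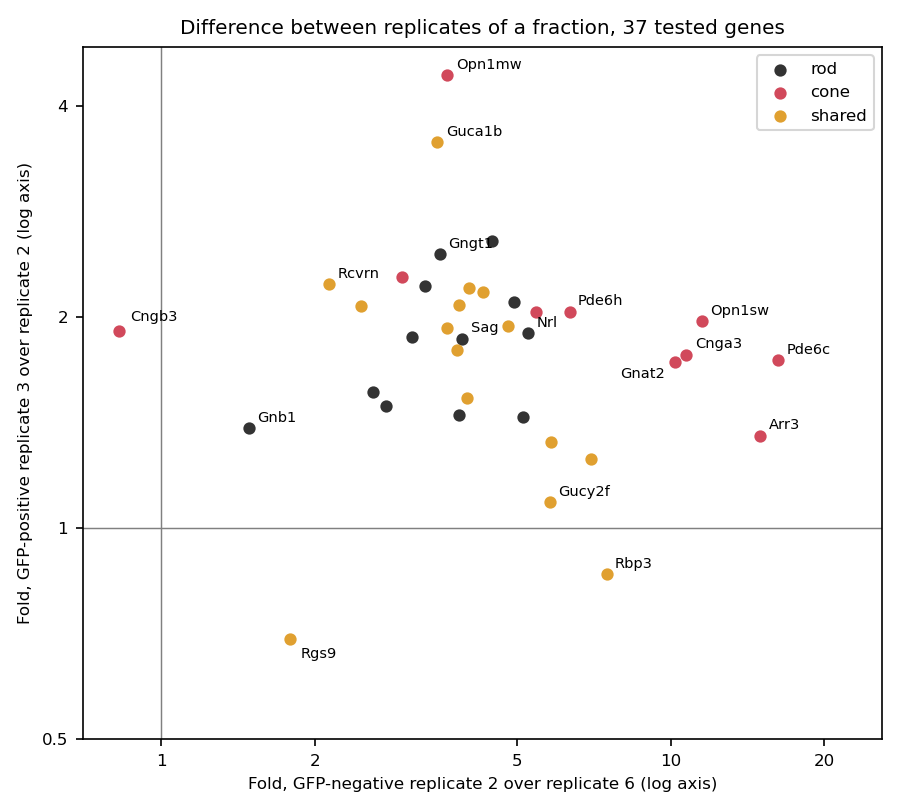
Fold between the GFP-negative replicates (horizontal log axis) and between the GFP-positive replicates (vertical log axis) for the 37 tested genes, 1 point per gene, coloured by class; grey lines mark no difference. Most points lie right of and above the lines, cone genes such as Arr3 and Pde6c lie furthest right, and Cngb3 is left of the vertical line.

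None of the genes passed the test between the fractions. Of 37 tested, 0 had an adjusted p under 0.05 in edgeR's quasi-likelihood test, where 1.1% of all tested genes did (198 of 17940), 0.234% higher and 0.87% lower in GFP-positive cells. Guca1a had too few counts to be tested. Log2 fold changes, GFP-positive minus GFP-negative, were positive for 35 of 37 (52.4% of all tested genes), with a median of 1.37 against 0.04 over all. The medians were 1.33 for rod genes, 1.45 for cone genes and 1.33 for shared genes. Both GFP-positive libraries lay above both GFP-negative ones for 27 of 37, against 22.5% of all tested genes, and below both for 1, Cngb3, against 21.3%. At an unadjusted p under 0.05 there were 14 genes, 13 of them higher, where 5.24% of all genes were higher and 7.34% lower at that level. The smallest adjusted p was 0.216, for Guca1b, whose level was 3.63 ± 2.84 CPM in the negative and 21.2 ± 16.8 CPM in the positive fraction (SD, 2 libraries each; log2 fold change 2.52 ± 0.75, standard error, edgeR). Cngb3 averaged 64.9 ± 8.71 against 30.3 ± 13.4 CPM (log2 fold change -1.10 ± 0.38, edgeR adjusted p = 0.281). Sag averaged 1254 ± 1049 against 3052 ± 1301 CPM (1.28 ± 0.66, edgeR adjusted p = 0.477), and Rgs9 31.9 ± 12.8 against 31.0 ± 7.93 CPM (-0.05 ± 0.40, edgeR adjusted p = 0.984). No gene of the set passed once p was adjusted over all tested genes, and a p above the threshold does not show that the fractions are equal.

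Single libraries set these values. Without GFP-negative replicate 2, 12 genes were called higher in GFP-positive cells by edgeR, among them Prom1, Opn1sw, Arr3, Rbp3, Gnat2 and Nrl, where 0.539% of all tested genes were, and the median was 2.71. Leaving out GFP-negative replicate 6 gave a median of 0.69, leaving out GFP-positive replicate 3 gave 0.80, and leaving out GFP-positive replicate 2 gave 1.72, with no gene of the set called in these fits. The library left alone in its fraction is then assumed to vary like the others. With DESeq2, 1 gene was called, Guca1b (adjusted p = 0.0212, 1.31% of all genes called higher), and with limma-voom none. An exact permutation test of 1 gene with 2 against 2 libraries cannot go below p = 0.333, two-sided.

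**Figure D5:**
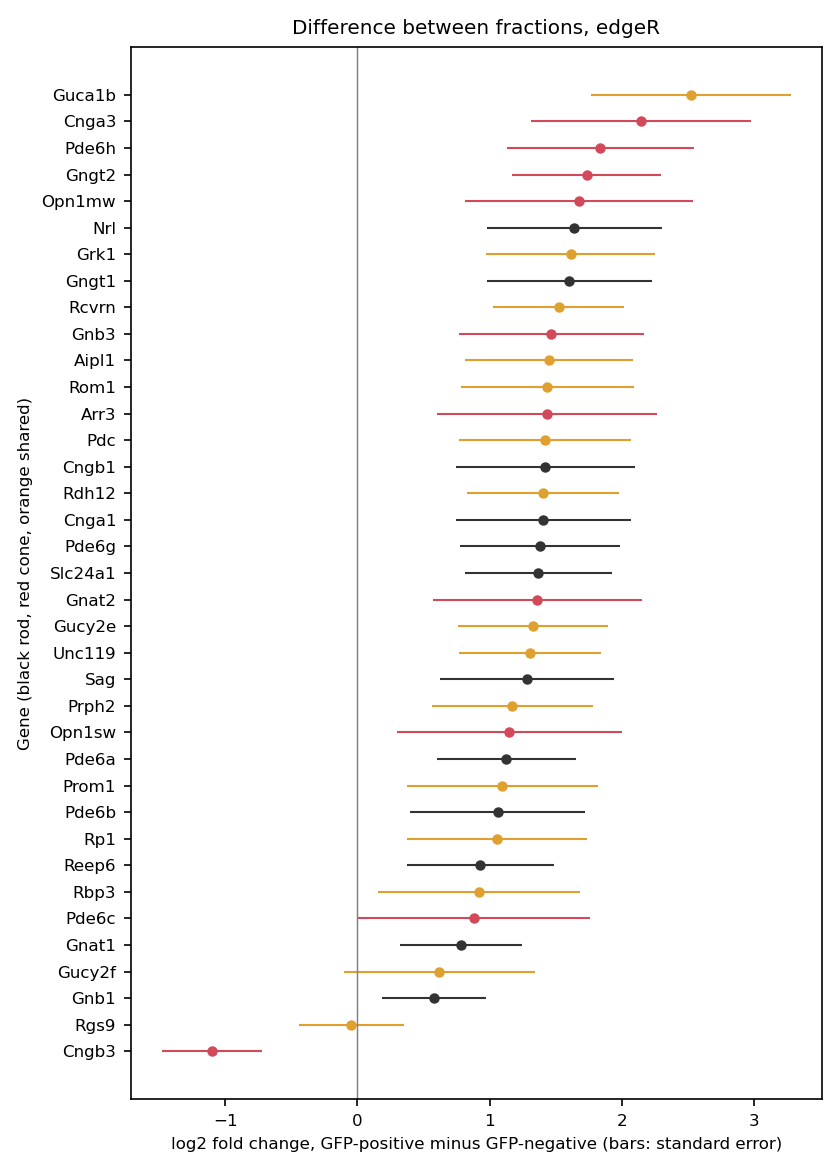
Log2 fold change between fractions (horizontal axis, GFP-positive minus GFP-negative, edgeR, bars are standard errors) for the 37 tested genes, ordered by size and coloured by class. Of these, 35 lie above 0, Rgs9 lies at 0 within its error, and Cngb3 lies below 0; none passed the adjusted threshold.

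Other genes of the photoreceptor programme, from lists outside the 38, were also lowest in sum in GFP-negative replicate 6 and highest in GFP-positive replicate 3. The folds of the sums were smaller, but single genes ranged widely. From end to end they differed 1.41- to 12.6-fold (transcription factors), 0.60- to 52.6-fold (other outer segment genes) and 0.45- to 12.2-fold (synapse genes). Rdh8, at 0 in GFP-negative replicate 6, has no fold. From end to end the sums differed 5.87-fold for transcription factors, 4.55-fold for other outer segment genes and 2.00-fold for synapse genes, and 2 of 13, 14 of 29 and 6 of 14 genes kept the full order of libraries, against 10.4% of all tested genes. Of 13 photoreceptor transcription factors none passed the edgeR threshold, 0 were under an unadjusted p of 0.05, and 12 had positive log2 fold changes (median 1.02). Their sum was 986, 3818, 4056 and 5790 CPM. Nr2e3, the nuclear receptor that represses cone genes in rods, was at 186, 1012, 1000 and 1743 CPM, the bHLH factor gene Neurod1 at 113, 669, 626 and 1139 CPM, and Crx at 118, 588, 554 and 879 CPM. All 3 were lowest in GFP-negative replicate 6 and overlapped between the fractions. Thrb, a receptor for thyroid hormone that sets cone opsin choice, was at 34.5, 68.1, 44.8 and 48.7 CPM. Among 29 other outer segment and phototransduction genes none passed, 4 had an unadjusted p under 0.05 (12.6% of all tested genes did), and 27 were positive (median 0.97). Tulp1 was at 87.2, 498, 544 and 1056 CPM, the photoreceptor cadherin Cdhr1 at 162, 602, 590 and 659 CPM, and Rpgrip1, a protein of the connecting cilium, at 16.6, 396, 470 and 871 CPM. Of 14 photoreceptor synapse genes none passed, and 10 were positive (median 0.76). An unadjusted p under 0.05 was found for 4, with Cabp4 and Cplx3 higher and Pclo and Rims2 lower in GFP-positive cells. Cplx3, a complexin also made by some amacrine cells, was at 152, 258, 454 and 732 CPM, Ctbp2, the gene of the ribbon protein RIBEYE, at 213, 272, 366 and 384 CPM, and the transporter gene Slc17a7 at 62.8, 299, 336 and 483 CPM. The presynaptic genes Bsn, Pclo and Rims2, which other neurons also use, had negative log2 fold changes of -0.58, -0.89 and -0.72. Of 11 bipolar markers none passed, 5 had an unadjusted p under 0.05, and 10 were positive (median 1.43). Of 12 amacrine markers 4 were lower in GFP-positive cells by edgeR (Tfap2c, Gad1, Gad2 and C1ql2), where 0.87% of all tested genes were. The 1 with a positive log2 fold change was Slc6a9 (0.90).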

How the data were processed

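Raw counts per gene, deposited by the authors for 4 libraries, were the starting values; the libraries were made with a low-input SMART-Seq kit from sorted cells per the labels' protocols. The submitters' processing notes name Trimmomatic, STAR 2.7.3a, MultiQC, limma and GRCm38, without saying what each was used for. The counting tool, annotation, strand setting and treatment of reads with several matches were not given in the sources read. A second table, of scaled values, was not used. Exon overlap with other genes was found for 4 members (Prom1, Gngt2, Opn1sw and Pde6h, all on the opposite strand) in GENCODE mouse release 21 (GRCm38), which also gave positions and exonic length (the union of annotated exons).

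Counts were tested with edgeR 4.0.16 in R 4.3.3: filterByExpr (minimum count 10, total 15), TMM scaling, robust glmQLFit and glmQLFTest, 2 residual degrees of freedom, Benjamini-Hochberg adjusted p under 0.05 over 17940 genes. The fit was also run on simulated counts, drawn for each gene separately. Such counts hold no difference between replicates that many genes share, so they cannot show how the test handles it. CPM uses TMM-scaled library sizes, and nearness in log2 CPM uses a pseudocount of 0.5 CPM. Alternatives used DESeq2 1.42.0, limma-voom (limma 3.58.1), other scalings and filters, a legacy quasi-likelihood fit, and fits without each library.

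Every member is reported: in each library for called genes, those highest per kilobase, rod and cone pairs, opsins, Nrl, cyclases, their activators, low genes and those farthest from the rod sum; others by mean or in full where the text compares them. Of other lists, counts, fold ranges and the 3 most abundant or called genes are given for photoreceptor lists. For the rest, sums or counts are given, with levels of Dkk3, Pax6, Slc6a9 and of the vascular and pigment epithelium genes. Thrb, Bsn, Pclo, Rims2, Cabp4, Pax6 and Slc6a9 were named after their values were seen. The genes, lists and motifs were chosen with earlier results of these data known.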

Additional observations from a re-analysis of the deposited data

How the results depend on the processing

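The number of genes called over the whole table was 198. It was 106 with no filter on low counts, 859 with DESeq2, 92 with limma-voom and 48 with the legacy quasi-likelihood fit, a setting chosen after seeing the data, and 1 to 336 when a library was left out. Phototransduction genes called numbered 0 except with DESeq2 (1) and in fits without a library (0 to 12). Their median log2 fold change ran from 0.69 to 2.71 without a library, and the ratio of the fractions' means from 1.51 to 6.03 for the rod sum and from 1.43 to 6.35 for the cone sum. The rod to cone ratio was 6.08 without division by length, which changes the weight of long genes and leaves GFP-negative replicate 6 (6.37) beside GFP-positive replicate 2 (6.29). It was 3.73 with the longest transcript as length, with 4.61 in GFP-negative replicate 6, and 3.20 to 3.56 without a library. Scaling by library size only moved the median of all genes from 0.04 to 0.21. Signs of single genes were kept under every alternative except for Rgs9 (0.086 with library size only, against -0.05 as reported), and in fits with a library left out, where Rgs9 ran from -0.40 to 0.38, Gucy2f from -0.12 to 2.35 and Pde6c from -0.022 to 3.94, lowest without GFP-negative replicate 6 and highest without GFP-negative replicate 2. The causes were not tested. A level of 0.5 or 5 CPM left 36 or 29 genes on in all libraries. No paired analysis was possible because the fractions share only replicate number 2, and a block on the number leaves no residual degrees of freedom. With 2 libraries a fraction the spread between replicates, and not the count depth, limits the comparison for all but the lowest genes, such as Cnga3 and Guca1a.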
